A study of Mus musculus with 6 samples.

Results

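The expression of 10 genes of YAP/TAZ-TEAD signalling was examined in cultured mouse inguinal fat cells after differentiation, with 3 control arrays and 3 arrays from cells that received 1 uM rosiglitazone for 4 d. The 10 genes were the co-activators Yap1 and Wwtr1, the DNA-binding factors Tead1, Tead2 and Tead4, and the target genes Ccn1, Ccn2, Ankrd1, Amotl2 and Lats2. They were taken by gene symbol from the annotation of the Affymetrix mouse array, with every probe set of each gene. Of 18193 genes that the annotation ties to a probe set of their own, 12947 were bright enough to test, all 10 among them. The 10 genes held 24 of the 45101 probe sets, and 22 of these were bright enough. Rosiglitazone is a thiazolidinedione drug that activates PPARγ, the nuclear receptor that drives fat cell differentiation, and the labels give beiging, the acquisition of a heat-producing state, as its effect here. A probe set reads the transcripts of a gene as an intensity in arbitrary units, and values under a floor of 16 were raised to it before taking log2. The labels give no strain, sex or age of mouse and no vehicle for the control cells. Whether samples of 1 group were separate cultures is not said, and the p-values therefore speak of the spread among these arrays alone, which may be technical in origin.

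YAP and TAZ (the latter encoded by Wwtr1) are related co-activators that do not bind DNA themselves. In the nucleus they bind TEAD factors and switch on target genes, and the LATS kinases of the Hippo pathway phosphorylate them and hold them in the cytoplasm. They respond to cell spreading, matrix stiffness and actin tension. TAZ also binds PPARγ and restrains its activity, and is known for favouring bone over fat in mesenchymal progenitors. Among the targets, Ccn1 (formerly Cyr61) and Ccn2 (formerly Ctgf) encode secreted matrix-associated proteins, Ankrd1 encodes an ankyrin repeat protein of muscle, and Amotl2 and Lats2 encode proteins that feed back to restrain YAP and TAZ.

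The promoters of the targets and of the co-activators themselves are shown because TEAD factors recognise the 6 letters CATTCC, or GGAATG on the other strand, which were searched on both strands. RefSeq windows on GRCm38.p6, running from 250 bases before to 50 bases after a transcript's start, were at hand for 7 of the 10 genes and not for Tead1, Tead4 and Ccn2. The letters occurred in 6 of these 7 genes, against 16.6% of the 27025 genes with a window and 14.7% of the 32851 windows of the same length. The exception was Tead2. The target genes are on the list as known YAP/TAZ-TEAD targets, so this count is not independent of how the genes were chosen. The 250 bases before the start of Ccn1 lie at chr3:145649986-145650235 and those of Ankrd1 at chr19:36119845-36120094, both on the minus strand. Stretches of 60 bases are given for Amotl2 (chr9:102717712-102717771, plus strand), Yap1 (chr9:8004705-8004764, minus strand) and Wwtr1 (chr3:57576014-57576073, minus strand). Each is written 5′ to 3′ on the gene's strand, with the TEAD letters in capitals.
Ccn1: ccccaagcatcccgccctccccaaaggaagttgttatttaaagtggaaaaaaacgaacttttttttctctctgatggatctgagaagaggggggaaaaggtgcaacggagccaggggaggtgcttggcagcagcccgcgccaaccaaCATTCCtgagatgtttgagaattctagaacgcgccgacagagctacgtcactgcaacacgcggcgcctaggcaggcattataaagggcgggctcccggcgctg
Ankrd1: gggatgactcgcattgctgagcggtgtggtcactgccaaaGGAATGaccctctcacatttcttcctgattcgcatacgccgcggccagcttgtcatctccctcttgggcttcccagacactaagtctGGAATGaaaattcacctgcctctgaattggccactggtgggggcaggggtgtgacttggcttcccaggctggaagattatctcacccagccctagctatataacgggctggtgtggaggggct
Amotl2: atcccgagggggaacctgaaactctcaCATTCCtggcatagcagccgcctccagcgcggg
Yap1: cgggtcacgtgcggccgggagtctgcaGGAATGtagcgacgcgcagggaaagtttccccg
Wwtr1: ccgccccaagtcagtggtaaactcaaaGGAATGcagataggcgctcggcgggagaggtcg
The letters began 103 bases before the start in Ccn1 and 65 bases before it in Amotl2. In Ankrd1 there were 2 matches, beginning 210 and 123 bases before the start. They began 141 bases before the start in Yap1 and 136 bases before the first of 2 listed starts in Wwtr1, where both windows held the same match. In Lats2 the match lay just after the first of its 2 listed starts. The CArG box, the motif of the actin-responsive factor SRF, was in 0 of the 7 genes and in 1.81% of all genes with a window. At so low a share 0 of 7 is uninformative. A match describes the letters of these windows and does not show that a factor was bound.

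With rosiglitazone, 7 of the 10 genes fell, 1 rose and 2 did not pass the test, each gene taken by its brightest probe set. Ccn2 fell most, 3.75-fold, and Ccn1 fell 2.03-fold. Yap1, Tead1, Tead4, Amotl2 and Lats2 fell by less. Wwtr1, the gene of TAZ, rose 1.40-fold. Tead2 and Ankrd1 did not pass. The test was limma's moderated test over 27022 probe sets with Benjamini-Hochberg adjustment, and a call is an adjusted p under 0.05. Calls were common in these arrays: among 12947 genes 58.2% were called, 35.2% as lower and 23% as higher (51.8% of probe sets). The median log2 change of the 10 genes was −0.50, beside −0.051 for all genes tested. In these bulk samples fewer cells of a type and less RNA per cell cannot be told apart, and markers of fibroblasts and preadipocytes were lower in the same arrays: 9 of 10 tested fell, and their summed intensity was 36978 to 37716 in control cells and 22354 to 23333 with rosiglitazone. The part of that difference in the falls given here was not tested. The plot of every probe set by array shows how far the groups lie apart for each gene.

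**Figure D1:**
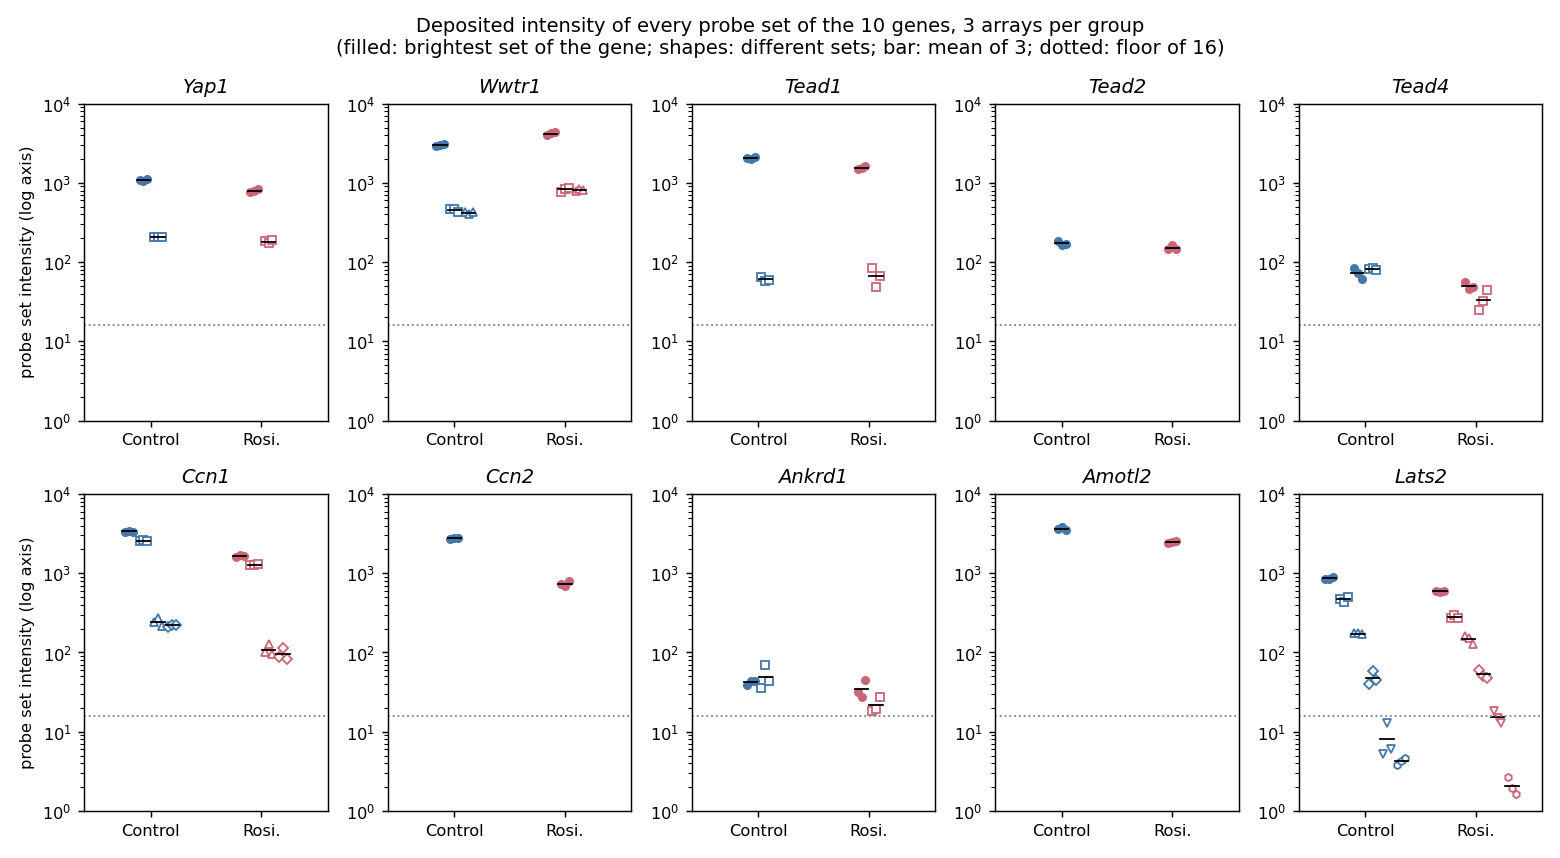
Deposited intensity (log axis) of every probe set of the 10 genes on the 3 control (blue) and 3 rosiglitazone (red) arrays; filled symbols mark the brightest set of a gene, shapes mark different sets, bars are means of 3 and the dotted line is the floor of 16. For Ccn2 the control arrays sit between 2671 and 2825 and the rosiglitazone arrays between 697 and 795, while all 3 Wwtr1 sets are higher with rosiglitazone and the sets of Ankrd1 and the dimmer sets of Lats2 lie near the floor.

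The co-activators moved in opposite directions. The brighter Yap1 probe set read 1101, 1050 and 1123 on the control arrays and 760, 783 and 837 with rosiglitazone. The groups did not overlap, and the log2 change was −0.46 (SE 0.046, limma adjusted p = 4.87e-07). The dimmer Yap1 set read 206 to 208 in control cells and 173 to 189 with rosiglitazone, also without overlap, and its log2 change of −0.19 was a weak call (adjusted p = 0.0327). That call was lost without control replicate 1, 2 or 3 (−0.19 each time) and without rosiglitazone replicate 1 or 2 (−0.20 and −0.16). It was lost as well after quantile normalization and after median centring of the arrays, at −0.066 and −0.069.

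Wwtr1 had 3 probe sets, and all 3 rose. The brightest read 2879, 2973 and 3069 in control cells and 3967, 4218 and 4341 with rosiglitazone, so that the lowest treated array lay well above the highest control array. Its log2 change was 0.49 (SE 0.036, adjusted p = 1.43e-08), and 7.53% of all genes had a larger rise. The other sets rose more, by 0.87 (SE 0.055), from 452 ± 17.2 to 826 ± 53.6, and by 0.95 (SE 0.047), from 422 ± 12.6 to 816 ± 20.2 (mean ± SD, n = 3 each). The size of the Wwtr1 rise therefore depended on the probe set, between 1.40-fold and 1.93-fold. With the mean of its sets it was 0.77 on the log2 scale.

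A factor common to all probe sets of an array cancels in a ratio within it, whereas the intensity-dependent rescaling of quantile normalization does not. The change in the Wwtr1 to Yap1 ratio was therefore taken array by array, relative to the control mean. The control arrays lay between −0.059 and 0.055 on the log2 scale and the rosiglitazone arrays between 0.93 and 0.98. The ratio was 0.95 higher with rosiglitazone (SE 0.037), without overlap. The exact two-sided permutation test of 3 against 3 gave p = 0.1, the smallest it can give (0.15 adjusted over the 3 pairs of related genes compared, a choice made with the values known). The ratio of Ccn2 to Ccn1 was lower on the same scale, at −0.99 to −0.78 on the rosiglitazone arrays against −0.033 to 0.040 in control cells, a difference of −0.88 (SE 0.063, exact permutation p = 0.1, adjusted 0.15). The ratio of Tead4 to Tead1 overlapped between the groups, with a difference of −0.15 (SE 0.18, exact permutation p = 0.7).

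**Figure D2:**
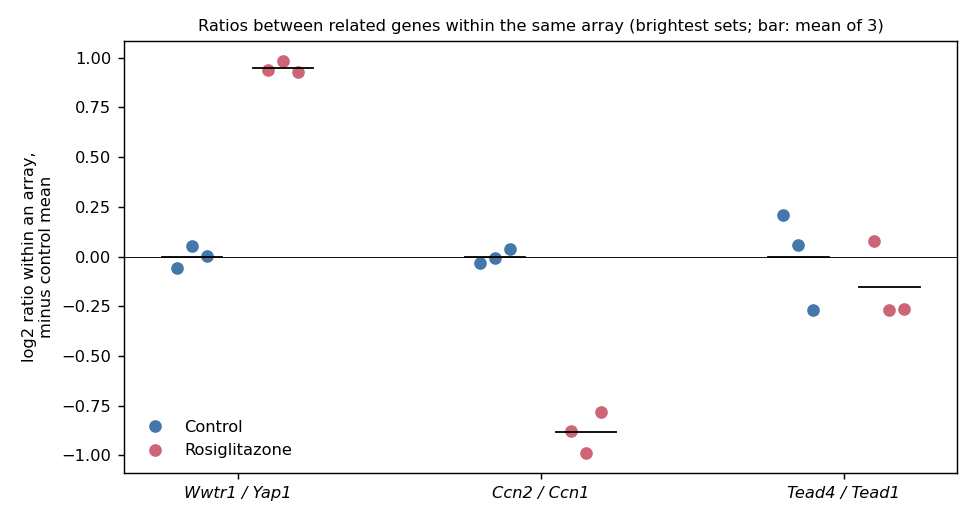
Log2 ratio between related genes within each array (brightest probe sets), minus the mean of the 3 control arrays; blue points are control arrays, red points rosiglitazone arrays and bars means of 3. The Wwtr1 to Yap1 ratio is higher on all 3 rosiglitazone arrays (0.93 to 0.98), the Ccn2 to Ccn1 ratio lower (−0.99 to −0.78), and the Tead4 to Tead1 ratio overlaps.

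The TEAD factors carry the DNA-binding part of the complex. The brighter Tead1 set read 2042, 1974 and 2095 in control cells and 1499, 1542 and 1648 with rosiglitazone. The groups were apart, and the log2 change was −0.38 (SE 0.040, adjusted p = 8.31e-07). The dimmer Tead1 set read 56.9 to 65.1 in control cells and 49.2 to 84.5 with rosiglitazone, where the groups overlapped (log2 change 0.10, adjusted p = 0.651). With the mean of both sets Tead1 was at −0.14 and not called. The fall of Tead1 thus rests on the brighter set.

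Tead4 was dim, and its 2 sets gave unequal falls. The set with the higher mean read 83.7, 72.9 and 61.5 in control cells and 56.0, 45.4 and 48.7 with rosiglitazone, close together but without overlap (log2 change −0.53, SE 0.15, adjusted p = 0.00741). The other set read 79.5 to 84.7 in control cells and 24.6, 32.4 and 44.1 with rosiglitazone, a change of −1.33 (SE 0.19, adjusted p = 2.15e-05). With a floor of 64 in place of 16 the first set was no longer called (−0.19), and without a filter on low values its adjusted p was 0.0746. Tead2 read 185, 165 and 168 in control cells and 146, 164 and 144 with rosiglitazone. Its highest treated array lay just under its lowest control array, and the log2 change of −0.19 (95% CI −0.37 to −0.011) did not pass (adjusted p = 0.0716). Without rosiglitazone replicate 2 it was −0.25 and called, and after median centring it was −0.068. Tead3, the remaining TEAD gene of the mouse, fell weakly by 0.25 on the log2 scale (SE 0.088, adjusted p = 0.0258), a call lost without control replicate 3 (−0.19) or rosiglitazone replicate 3 (−0.23) and after either other scaling of the arrays (−0.15 and −0.13).

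The cofactors that share the TEADs also fell where they could be tested. Vgll3, whose product binds TEADs and restrains fat cell differentiation, fell from 2522 ± 63.1 to 1007 ± 44.3, which is −1.33 on the log2 scale (SE 0.039, adjusted p = 4.05e-13), and all 3 of its probe sets were called lower. Vgll4, whose product competes with YAP and TAZ for TEADs, fell from 560 ± 30.8 to 356 ± 23.2 (−0.65, SE 0.061). Vgll1 and Vgll2 lay under the floor of 16 on all 6 arrays.

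Among the brightest sets of the 10 genes, those of Ccn2 and Ccn1, which encode secreted CCN proteins, had the largest falls. The single Ccn2 set read 2671, 2799 and 2825 in control cells and 723, 697 and 795 with rosiglitazone. The highest treated array lay far below the lowest control array, and the log2 change was −1.91 (SE 0.047, adjusted p = 5.64e-14). It was the 40th largest fall among all 12947 genes, of which 0.301% fell further. Ccn1 had 4 probe sets that gave like changes. The brightest read 3331, 3425 and 3349 in control cells and 1619, 1685 and 1667 with rosiglitazone, without overlap (−1.02, SE 0.032, adjusted p = 5.82e-13). Of all genes 4.26% had a larger fall. The other 3 sets had changes of −0.999, −1.18 and −1.22, at control means from 220 to 2559.

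The other CCN genes were also lower. Ccn3 fell by 1.21 on the log2 scale (SE 0.077), Ccn4 fell by 1.43 (SE 0.098) and Ccn5, whose product lacks the C-terminal domain of the family, fell by 0.93 (SE 0.057). Ccn4 read 191 ± 18.5 in control cells and 70.4 ± 2.99 with rosiglitazone. Ccn6 was too dim to test, reading 16.8 to 26.2 on the 6 arrays.

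Ankrd1 was near the lower end of detection. Its brighter set read 39.2, 43.2 and 44.0 in control cells and 31.8, 27.6 and 45.0 with rosiglitazone, where replicate 3 lay above all control arrays (log2 change −0.31, 95% CI −0.74 to 0.13, adjusted p = 0.228). Its second set read 35.9, 69.4 and 43.6 in control cells and 18.4, 19.1 and 27.6 with rosiglitazone, without overlap, and was called lower (−1.16, SE 0.26, adjusted p = 0.00134). With rosiglitazone its mean was 21.7, under the filter level of 26.7. Only its control arrays carried it past the filter on low values. The mean of both sets was called (−0.73, adjusted p = 0.0127), while the second set was not called without a filter on low values (adjusted p = 0.0601) or with a floor of 64 (−0.039, adjusted p = 0.499). Ankrd2 and Ankrd23, related muscle genes, were not called, with log2 changes of 0.21 (adjusted p = 0.331) and 0.0057 (adjusted p = 0.972).

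The feedback regulators fell by similar amounts. Amotl2, whose product binds YAP and keeps it at cell junctions, read 3623, 3790 and 3519 in control cells and 2440, 2481 and 2580 with rosiglitazone. The groups were apart by more than their spread, and the log2 change was −0.54 (SE 0.035, adjusted p = 2.35e-09). Lats2, a kinase that inactivates YAP and TAZ, had 6 probe sets. The brightest read 848, 847 and 894 in control cells and 604, 574 and 604 with rosiglitazone (−0.54, SE 0.045, adjusted p = 6.38e-08). The next read 473, 436 and 505 against 270, 295 and 274 (−0.75, SE 0.065, adjusted p = 8.37e-08).

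The dimmer Lats2 sets did not give the same picture. The third read 175, 174 and 170 in control cells and 162, 154 and 128 with rosiglitazone, and its change of −0.24 was a weak call (adjusted p = 0.0427). That call was lost without control replicate 1, 2 or 3 (−0.23, −0.23 and −0.25) and without rosiglitazone replicate 2 or 3 (−0.27 and −0.13). It was lost as well after quantile normalization and median centring, at −0.12 and −0.11. The same held with a lighter or no filter on low values, with a floor of 64 and without the variance trend. The fourth overlapped between groups, at 39.8 to 58.0 in control cells and 47.9 to 60.7 with rosiglitazone (0.17, adjusted p = 0.449). The remaining sets were under the floor on 5 and 6 of the 6 arrays and were not tested. A further probe set is annotated to both Xpo4 and Lats2 and was not counted, and it read 101 to 128 in control cells and 121 to 152 with rosiglitazone. The brightest sets of Lats2 and of Ccn1 carry the array maker's mark for probes that may also match other transcripts.

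**Figure D3:**
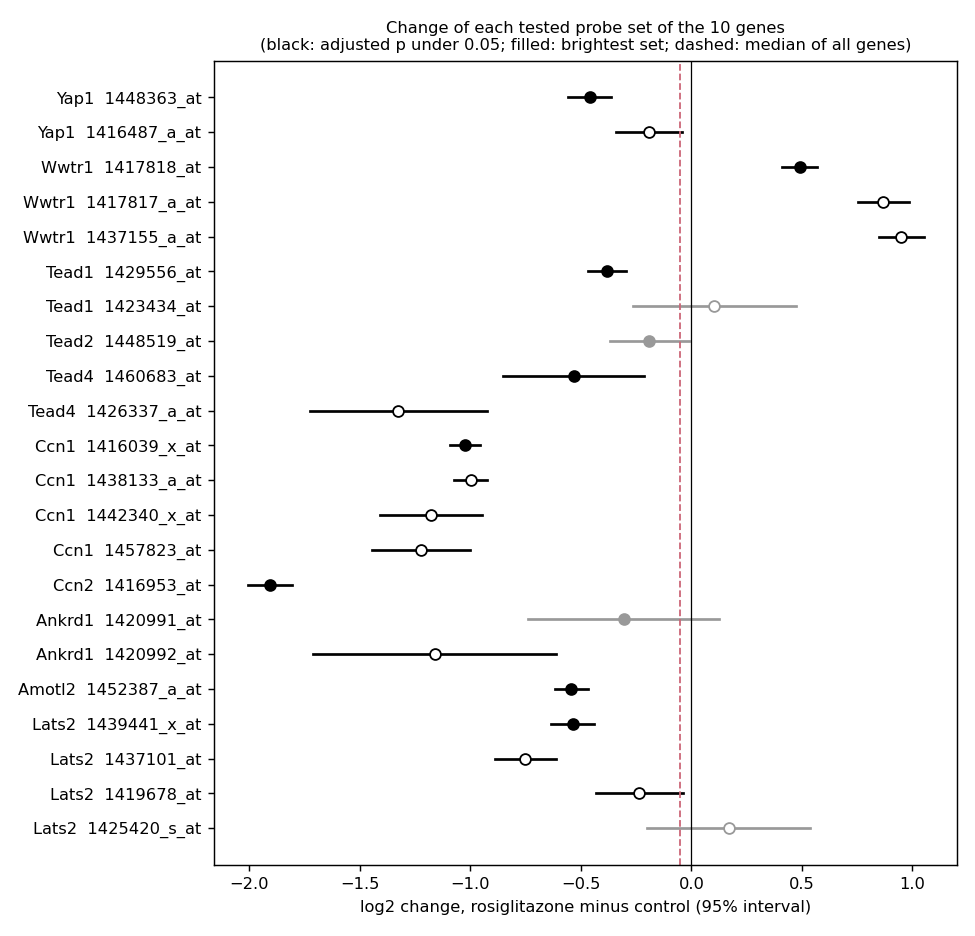
Log2 change (rosiglitazone minus control) of the 22 tested probe sets of the 10 genes, with 95% intervals from limma; black marks an adjusted p under 0.05, grey the rest, filled points are the brightest set of a gene and the dashed line is the median of all genes (−0.05). The interval of Ccn2 lies from −2.01 to −1.81, all Wwtr1 intervals lie above 0, and the sets of Tead1, Ankrd1 and Lats2 disagree.

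Counted by probe set, 15 of the 22 tested sets fell, 3 rose and 4 were not called, beside 30.6% of all tested probe sets called lower and 21.1% called higher. The groups did not overlap in 16 of these sets with rosiglitazone lower, beside 34.1% of all, and in 3 with it higher, beside 24.2%. Both counts of lower sets include the second Ankrd1 set, which only its control arrays carried past the filter. The 3 rises were the 3 sets of Wwtr1. In 8 of the 10 genes the brightest set had all treated arrays below all control arrays, beside 38.2% of all genes, and in 1 above them, beside 25.7%. How the arrays are scaled bears on small changes. Median centring here used the median log2 of each array's tested probe sets, not of all its probe sets. It shifted the median of all genes by 0.12, from −0.051 to 0.071. Among called genes it raised the share that were higher from 39.5% to 58.1% (51.0% after quantile normalization). The direction of the 10 brightest sets was the same under all 3 scalings. After median centring Ccn2 was at −1.78, Ccn1 at −0.90, Yap1 at −0.34 and Wwtr1 at 0.61.

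**Figure D4:**
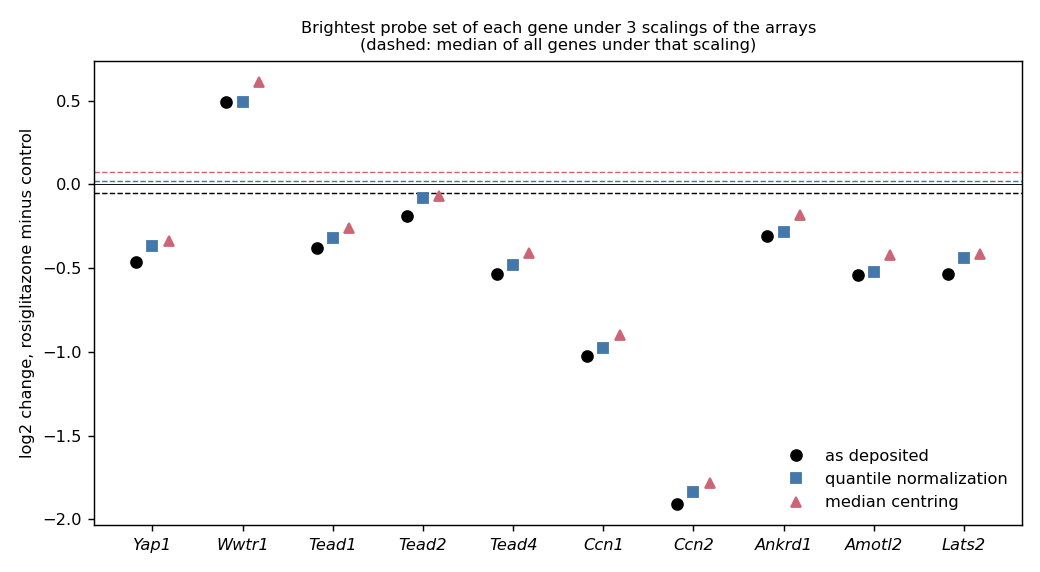
Log2 change of the brightest probe set of each of the 10 genes as deposited (black circles), after quantile normalization (blue squares) and after median centring (red triangles); dashed lines are the medians of all genes under each scaling. Each gene keeps its direction, and Tead2 moves closest to 0, to −0.082 and −0.068.

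Upstream of YAP and TAZ, Hippo kinases and their regulators fell more often than they rose. Of 19 genes tested 12 fell, 3 rose and 4 were not called, with a median log2 change of −0.32. Of all genes 35.2% were called lower and 23% higher. Frmd6, which encodes a junctional FERM protein that acts on the pathway, fell by 1.08 on the log2 scale (SE 0.044) and Amot, a YAP-binding relative of Amotl2, fell by 1.07 (SE 0.052). The giant cadherin gene Fat4 fell by 0.86 (SE 0.089), the kinase gene Taok3 fell by 0.69 (SE 0.070), and Amotl1, the third angiomotin gene, fell by 0.53 (SE 0.034). The rises, named after their values were seen, were in Wwc1 (0.51, SE 0.18), the merlin gene Nf2 (0.33, SE 0.047) and the LATS co-activator gene Mob1b (0.20, SE 0.050). The call of Wwc1, which is dim, was lost without control replicate 1 or 2 (0.38 and 0.52) or rosiglitazone replicate 2 or 3 (0.52 and 0.49). The kinase genes Stk4 and Lats1 were not called, at −0.032 (adjusted p = 0.630) and −0.10 (adjusted p = 0.134), and both were slightly above 0 after the other scalings. Lats1 was called at −0.16 without rosiglitazone replicate 1. Limd1 (−0.043) and Dchs1 (−0.40) were not called either. After median centring 9 genes of this list were called lower and 3 higher, beside 24.9% and 34.5% of all genes.

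Other genes used as YAP/TAZ readouts mostly fell. Of the 17 remaining genes of a published 22-gene YAP/TAZ target signature, 16 were tested, 12 fell and 4 rose, with a median of −0.68. The shares over all genes were 35.2% called lower and 23% called higher. The receptor kinase gene Axl fell from 940 ± 46.9 to 409 ± 26.0 (−1.20, SE 0.056), and the tissue factor gene F3 from 3384 ± 175 to 1696 ± 21.5 (−0.995, SE 0.038). Igfbp3, Rbms3 and Nuak2 fell by 0.98, 0.96 and 0.90 on the log2 scale. The rises, also named after their values were seen, were in Dock5 (0.46), Gadd45a (0.45), Tgfb2 (0.42) and Ptpn14 (0.22). Of the 3 tested Tgfb2 sets 1 was called higher and 2 lower, and their mean was at −0.18 and not called. Foxf2 was under the floor on all 6 arrays.

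Of 7 tested genes among other frequent readouts, 6 fell and 1 rose, with a median of −1.07. Among all genes 35.2% were called lower and 23% higher. Thbs1, which encodes the matrix protein thrombospondin 1, fell from 3712 ± 187 to 1220 ± 106 (−1.61, SE 0.053). The cyclin gene Ccnd1 fell by 1.51 on the log2 scale (SE 0.046), Ereg, an EGF-family ligand gene, fell by 1.45 (SE 0.21) and the endothelin gene Edn1 fell by 1.07 (SE 0.061). Cavin2, a caveolar coat gene, rose from 6537 ± 171 to 9834 ± 316 (0.59, SE 0.029). Of 12 contractile and SRF-related genes 11 fell and 0 rose, beside the same shares of all genes, with a median of −0.80. Of these 12 genes 4 (Acta2, Actg2, Cnn1 and Tagln) are also among the smooth muscle markers. The list was led by Cnn1 (−1.58), Actg2 (−1.52), Myl9 (−1.18), Tagln (−1.08) and Tpm2 (−1.04). Cnn1 was dim in both groups (59.0 ± 2.90 and 19.96 ± 3.67), and with a floor of 64 its change was 0 and its call was lost. Its mean with rosiglitazone was under the filter level of 26.7, so only its control arrays carried it past the filter. The member not called was Srf itself (−0.16, adjusted p = 0.0600), which was called at −0.20 without control replicate 1.

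**Figure D5:**
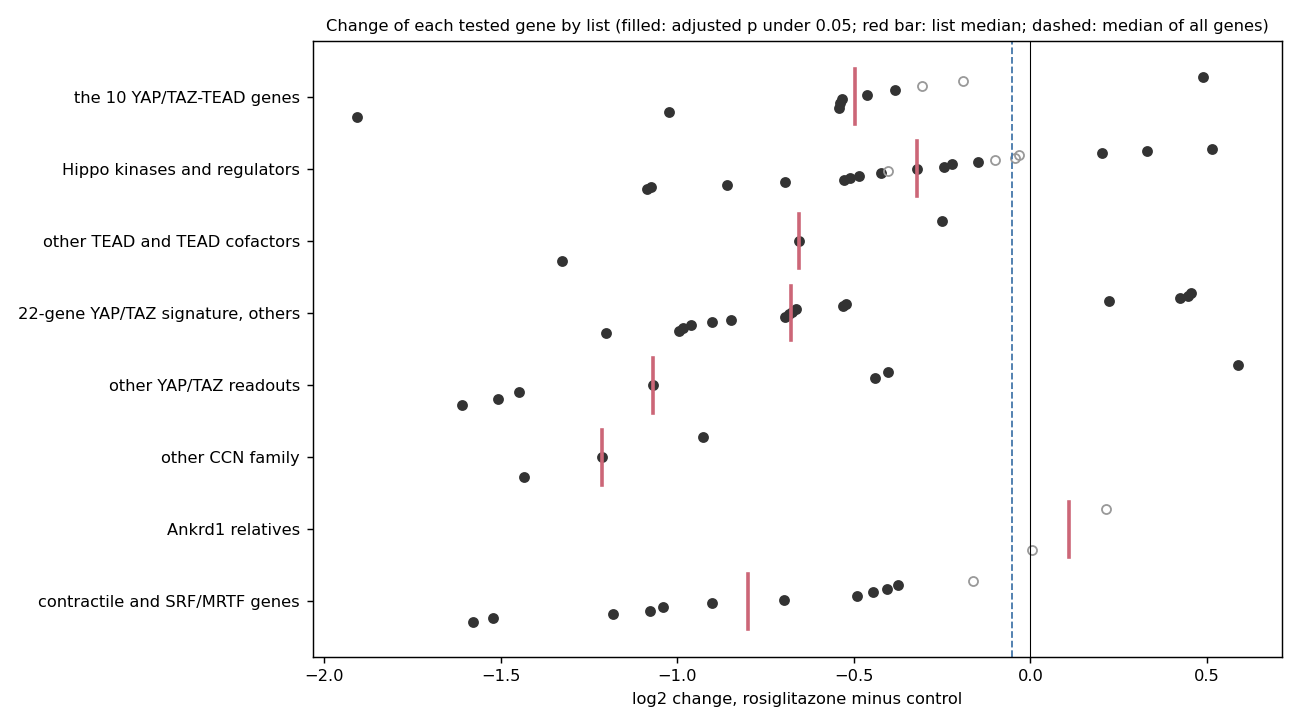
Log2 change of each tested gene (brightest probe set) in the 10 YAP/TAZ-TEAD genes and 7 related lists; filled points have an adjusted p under 0.05, red bars are list medians and the dashed line is the median of all genes (−0.05). Most points of the signature (median −0.68), the other readouts (−1.07), the CCN family (−1.21) and the contractile genes (−0.80) lie left of the dashed line, and the Hippo regulators are more mixed.

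Markers of several other cell types, and the actin ratio used to gauge RNA quality, differed between the groups. The arrays themselves were alike in level, with medians of 44.7 to 46.8. The marker counts below stand beside 35.2% of all genes called lower and 23% called higher. The beige and brown genes rose in 7 of 7 cases (summed intensity 4747 to 5460 in control cells and 20444 to 21331 with rosiglitazone). Ucp1 read 5.38 ± 1.37, under the floor, and 1495 ± 16.9, and Cidea 52.8 and 4611. Of 7 tested fat cell markers 1 rose and 3 fell (sums 55647 to 57534 against 55360 to 56118). After median centring 4 rose and 3 fell, beside 34.5% and 24.9% of all genes. Fabp4 and Pnpla2 were not called by their brightest sets, but 2 of 4 Fabp4 sets and 1 of 2 Pnpla2 sets were called higher. The fat cell hormone gene Adipoq was high in both groups (12829 ± 147 and 13158 ± 238) and not called, though it was called higher after median centring (0.16). Pparg fell by 0.36 on the log2 scale (SE 0.027). Besides the fibroblast and preadipocyte markers given above, of which Dpp4 was under the floor on all arrays, markers of other cells moved too. Of 11 tested macrophage markers 10 fell, with sums of 12290 to 13430 against 4184 to 4554 and Cd163 under the floor. Of 8 smooth muscle and pericyte markers 5 fell and 1 rose (sums 8242 to 8730 against 4845 to 4959). The count of rises moved in 11 of 21 alternatives. It was 2 after either other scaling and under several other settings, and 0 in the test against a 1.5-fold change. Des lay at the threshold (0.21, limma adjusted p = 0.0502). Endothelial markers were dim, with 3 of 10 tested, of which 2 fell and 1 rose (sums 482 to 490 against 273 to 287), and Tie1 and Emcn under the floor. That rise, in Sox18 (37.2 ± 5.76 and 50.8 ± 3.33), was lost in 10 of 21 alternatives (0 called higher). It was lost without control replicate 2, without rosiglitazone replicate 2 or 3, and with the replicate block. The others were each other filter on low values, a floor of 64, a threshold of 0.01 and the test against a 1.5-fold change. Of 4 tested mesothelial markers 1 rose (sums 256 to 284 against 288 to 306, with Upk3b under the floor). Of 3 tested lymphocyte markers 1 fell (sums 448 to 453 against 283 to 305, with Cd3e and Cd79a under the floor). The marker that fell was Ptprc (303 ± 5.39 and 135 ± 4.12), and Cd8a and Cd79b were not called by their brightest sets. The 3′ to 5′ ratio of the actin control probe sets was 1.75 to 1.85 in control cells and 2.29 to 2.58 with rosiglitazone (exact permutation p = 0.1, the smallest possible), and that of Gapdh overlapped (1.05 to 1.12 and 0.984 to 1.10). The part of these differences in the changes of the YAP/TAZ-TEAD genes was not tested.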

How the data were processed

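The authors deposited 1 linear intensity for each of 45101 probe sets on each of 6 arrays. How they summarized and scaled the arrays is not stated by the sources used here, so other scalings were tried. Array medians lay between 44.7 and 46.8. Total RNA was extracted with TRIzol and columns and labelled as biotinylated cRNA, per the labels' protocols. The treatment protocol gives rosiglitazone for all samples, so groups were taken from the titles, which match the treatment characteristic.

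Probe sets were named through the platform's annotation: 34945 had 1 symbol, 932 several and 9160 none. Intensities under 16 were set to 16 and log2 was taken. The 64 control probe sets and the 40% of the others with the lowest mean log2 were dropped, so that a tested set had a mean above an intensity of 26.7. The main test was limma 3.58.1 under R 4.3.3, using lmFit and then eBayes with its trend option, two-sided and without covariates, with Benjamini-Hochberg adjustment over 27022 probe sets and a threshold of 0.05. The set of highest mean log2 stood for its gene, which gave 12947 genes. Intensities are given as mean ± SD of 3 arrays, and log2 changes with limma's standard error (SE) or 95% interval (CI). The number of arrays limits the precision. The fit was tested on simulated data.

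The genes, the 7 related lists and the 8 marker lists were chosen with earlier results of these data known. Named were all 10 genes with each probe set, up to 5 called genes of each other list with the largest change, every TEAD and CCN gene, and Pparg, Adipoq, Ucp1 and Cidea as label checks. Alternatives were other filters, floors, scalings, probe set rules, variance models, thresholds, the replicate block and each array left out. Protein sequences were not used here.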

Additional observations from a re-analysis of the deposited data

How the results depend on the processing

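Across 21 alternatives the brightest set of each of the 10 genes had the same direction, except that Ankrd1 was at 0 with a floor of 64 and that Ankrd1 and Tead4 were not tested with the lowest 60% left out. The calls of Ccn1 and Ccn2 held in all 21. Limma's treat against a 1.5-fold change was the strictest: 565 probe sets were called higher and 1498 lower, 310 genes higher and 870 lower, and of the 10 genes 0 were higher and 2 lower. Under treat the calls were lost for Yap1 (−0.46), Wwtr1 (0.49), Tead1 (−0.38), Tead4 (−0.53), Amotl2 (−0.54) and Lats2 (−0.54). The Hippo list then had 0 genes higher and 2 lower, and the signature 0 higher and 6 lower. Of all genes 2.39% were then called higher and 6.72% lower. Median centring raised the probe sets called higher from 5711 to 8693. Tead4 lost its call without a filter on low values (−0.53, where more probe sets are tested) and with a floor of 64 (−0.19). With the mean of a gene's sets Tead1 was not called (−0.14), Ankrd1 was called (−0.73), and Tead2 was called (−0.19, adjusted p = 0.0468; the cause was not tested). Leaving out 1 array at a time, Tead2 lay between −0.25 and −0.14 and was called only without rosiglitazone replicate 2.

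Signs also turned under some settings. The dimmer Tead1 set was at −0.074 with array weights and ranged from −0.085 to 0.31 with 1 array left out. Stk4, Lats1 and Limd1 were at 0.069, 0.0012 and 0.036 after quantile normalization, and the cause was not tested. Median centring adds 0.12 to the change of any set well above the floor, and after it they were at 0.090, 0.022 and 0.080. With 1 array left out Limd1 ranged from −0.093 to 0.014, Stk4 from −0.092 to 0.0056 and Ankrd23 from −0.063 to 0.10. With the mean of the probe sets Nt5e, a signature gene called lower by its brightest set (−0.53), was at 0.054. Tgfb2, another signature gene called higher (0.42), was at −0.18, since a mean takes in sets that disagree.

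No pairing by replicate number was seen: the deviations of same-numbered arrays correlated at −0.043, −0.016 and 0.026. With 3 arrays per group these values cannot exclude a paired design. With the replicate block 1 of the 10 genes was called higher and 7 lower, and 2925 of all genes were called higher and 4513 lower. Over 88 log2 changes and their alternatives, 1685 of 1811 values kept both direction and call, 100 lost the call, 10 gained it and 16 changed sign. The sets of Ankrd1 and Tead4 and the fourth to sixth sets of Lats2 lay nearest the floor, which limits what the arrays can resolve for them.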
